A study of Mus musculus with 6 samples.

Results

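The genes described here are 10 ligands of the tumour necrosis factor (TNF) superfamily: Tnf, Lta, Ltb, Tnfsf4, Tnfsf8, Tnfsf9, Tnfsf11, Tnfsf14, Fasl and Cd40lg. They are named members of the family, picked with earlier results of these data known, and were matched to Ensembl identifiers through GENCODE release M21, which found all 10 among the 48440 genes of the deposited count table. RNA was sequenced from primary CD4+ T cells of wild-type mice, taken from spleen and lymph node. The stimulated group, 3 libraries, had been restimulated for 4 hours with antibodies against CD3 and CD28. The unstimulated group, also 3 libraries, was left at rest. All cells of both groups had earlier been activated for 3 days on plate-bound antibodies against the same receptors and then grown for 5 days in interleukin 2, so that the resting cells are rested, previously activated cells and not naive ones. Strain, sex and age of the mice are not given in the labels. The replicates are called biological, but nothing says that they came from separate mice or cultures. The p-values thus judge the group difference only against the variation among these libraries, and part of that variation may be technical.

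Ligands of this superfamily are membrane proteins, most of them with the amino terminus inside the cell, whose outer domains assemble into trimers and bind receptors of the TNF receptor superfamily on neighbouring cells. Many are also shed by proteases and then act as soluble cytokines. On helper T cells they carry the signals by which the cell instructs others: help to B cells through the CD40 ligand, inflammation through TNF, organisation of lymphoid tissue through the lymphotoxins, osteoclast and dendritic cell survival through RANKL, and killing of Fas-bearing cells through the Fas ligand.

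Tnf, Lta and Ltb lie side by side in the class III region of the major histocompatibility complex, and their proximal promoters are shown because neighbours that share a locus differed widely in their response. Each line holds the 250 bases before the RefSeq start of transcription in GRCm38.p6, read 5′ to 3′ on the strand of the gene. Capitals mark the core of the NFAT motif, GGAAA or its reverse complement TTTCC, and the TATA box letters TATAAA. The Tnf window is chr17:35202008-35202257 on the minus strand, the Lta window chr17:35205352-35205601 on the minus strand, and the Ltb window chr17:35194257-35194506 on the plus strand.
Tnf: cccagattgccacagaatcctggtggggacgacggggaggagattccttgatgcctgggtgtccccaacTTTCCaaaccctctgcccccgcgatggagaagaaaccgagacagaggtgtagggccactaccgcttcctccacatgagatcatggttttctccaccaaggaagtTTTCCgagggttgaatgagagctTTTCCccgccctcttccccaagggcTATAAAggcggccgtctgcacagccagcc
Lta: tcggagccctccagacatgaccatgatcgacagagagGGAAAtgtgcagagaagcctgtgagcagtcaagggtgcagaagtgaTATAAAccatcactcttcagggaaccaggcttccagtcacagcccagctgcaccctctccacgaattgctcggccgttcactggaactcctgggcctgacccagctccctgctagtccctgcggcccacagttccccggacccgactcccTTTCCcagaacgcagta
Ltb: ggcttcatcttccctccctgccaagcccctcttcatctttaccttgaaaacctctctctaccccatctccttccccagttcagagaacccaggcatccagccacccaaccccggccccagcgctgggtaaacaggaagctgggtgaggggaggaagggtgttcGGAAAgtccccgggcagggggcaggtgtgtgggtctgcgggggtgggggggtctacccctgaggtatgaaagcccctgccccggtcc

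The letters GGAAA occurred 3 times in the Tnf window, 2 times in the Lta window and 1 time in the Ltb window, counting both strands, and 55.6% of the 32851 promoter windows in the RefSeq table hold them at least once. TATAAA on the forward strand, held by 7.59% of those windows, stood 29 to 24 bases before the Tnf start and 167 to 162 bases before the Lta start, and was not in the Ltb window. The NF-kB consensus, searched on both strands and held by 3.9% of windows, matched at 1 place, 87 to 78 bases before the Ltb start, where it overlaps the GGAAA match. The AP-1 form TGANTCA, held by 6.75% of windows, matched in none of these 3 windows. Of the 10 ligands, 7 had a window in the RefSeq table, and the other 4 of these are Tnfsf8, Tnfsf11, Tnfsf14 and Fasl. Tnfsf8 and Tnfsf11 held the GGAAA letters 1 time each, Tnfsf14 3 times and Fasl 2 times. The AP-1 form was found in the Tnfsf14 window alone. Whether the number of matches goes with the size of the change was not tested.

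The transcripts of Tnf and Lta also hold the AU-rich nonamer TTATTTATT (DNA letters) in the 3′ untranslated region, a sequence known to bind decay factors such as tristetraprolin. The stretches are shown as DNA letters of the gene strand with the nonamers in capitals, 30 bases each, from GENCODE M21 on GRCm38. They lie at chr17:35199680-35199709 for Tnf and chr17:35203396-35203425 for Lta, both on the minus strand.
Tnf: taTTATTTATTATTTATTTATTATTTATTt
Lta: gaaaagttaagTTATTTATTtatagagaat

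The longest annotated Tnf untranslated region, 764 bases, held 5 nonamers, of which 4 overlapping ones stand in the stretch shown, and that of Lta, 572 bases, held 1. The nonamer occurred in 4.82% of the tested protein-coding genes whose untranslated region was of like length to that of Tnf, and in 3.32% for Lta. The other 8 ligands held no nonamer. The shorter letters ATTTA, counted without overlap, stood 10 times in Tnfsf8, 6 times each in Tnf and Tnfsf11, and 0 times in Ltb. Lta and the remaining ligands held them 1 or 2 times. How often other genes hold these shorter letters was not counted. Ltb, with 174 bases, and Tnfsf8, with 2799 bases, had the shortest and the longest untranslated region among the 10.

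The libraries were alike in depth, with 29897720 to 30252923 counted reads, and in CPM, read counts scaled to a common library size, a count of 3 reads corresponded to 0.0992 to 0.1. The stimulus check genes Il2, Cd69 and Nr4a1 were higher in each stimulated library than in any unstimulated one. T cell markers were abundant: Cd3e, Cd3d, Cd3g, Cd4, Trac and Cd5 together gave 1531 to 1561 CPM in stimulated and 3210 to 3477 CPM in unstimulated libraries. Of markers of other cells that also make these ligands, the 6 B cell genes summed to 728 to 1280.0 CPM in stimulated and 1401 to 2856 CPM in unstimulated libraries, nearly all of it Ighm. The CD8 T cell genes Cd8a and Cd8b1 summed to 20.7 to 25.8 CPM in stimulated and 20.9 to 24.8 CPM in unstimulated libraries; Cd8a rose by 1.10 (edgeR, adjusted p = 5.25e-05) and Cd8b1 fell by 0.33 (edgeR, adjusted p = 0.0358). The 5 macrophage genes summed to 2.93 to 3.58 CPM in stimulated and 6.22 to 8.24 CPM in unstimulated libraries. Among them Itgam shares most of its exon bases with another gene on the same strand, so its part of that sum is uncertain. The 4 natural killer cell genes summed to 58.7 to 113 CPM in stimulated and 2.48 to 20.3 CPM in unstimulated libraries; this was mostly Eomes, which T cells express too, while Ncr1 and Klrb1c had at most 3 reads in any library. Dendritic cell genes summed to at most 1.34 CPM, with Siglech and Clec9a at 0 reads in every library, and neutrophil genes to at most 0.221 CPM.

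All 10 ligands rose after restimulation. Levels are given as CPM with TMM-scaled library sizes, and changes on the log2 scale (stimulated over unstimulated) with an SE, tested with edgeR's quasi-likelihood test and Benjamini-Hochberg adjustment over the 13314 genes that passed the filter on low counts, at a threshold of 0.05. The 10 ligands all passed that filter, and their adjusted p lay between 2.6e-09 and 0.0013. Among all tested genes 38.4% rose, 39.1% fell and 77.5% passed the test in either direction. The median change of the ligands was 3.06, against -0.043 over all tested genes. The 3 stimulated libraries lay above the 3 unstimulated ones for each of the 10, as they did for 39.4% of all tested genes; for another 40.4% all stimulated libraries lay below. When tested against a change of 2-fold with glmTreat, 8 of the 10 rose by more than that, against 17.4% of all tested genes that rose and 18.2% that fell by as much, and the exceptions were Ltb and Cd40lg. RNA content per cell was not measured, and in such bulk samples a change in the number of cells that make a transcript and a change in transcript per cell cannot be told apart.

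**Figure D1:**
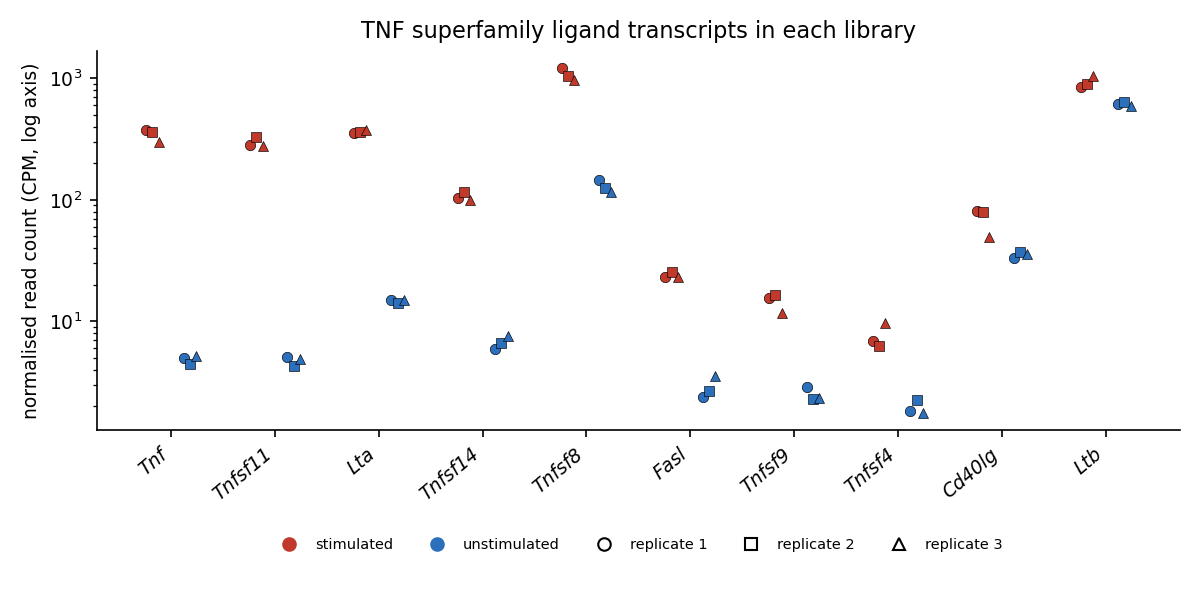
Normalised read count (CPM, log axis) of each ligand in the 3 stimulated and 3 unstimulated libraries, ordered by fold change, with a symbol for each replicate number. For every ligand the stimulated points lie above the unstimulated ones; the gap is widest for Tnf (300.5 to 373 against 4.49 to 5.15 CPM) and narrowest, relative to the level, for Ltb (848 to 1041 against 592 to 636 CPM).

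Tnf encodes the inflammatory cytokine TNF, which is made as a membrane protein and shed (ENSMUSG00000024401, chromosome 17, 35199381 to 35202007, minus strand, GRCm38). It had 373, 363 and 300.5 CPM in stimulated replicates 1, 2 and 3, against 4.96, 4.49 and 5.15 CPM in the unstimulated replicates. The stimulated libraries were all far above the resting ones, with replicate 3 the lowest among them. The rise was 6.15 on the log2 scale (SE 0.12; edgeR, adjusted p = 4.1e-09), or 70.9-fold, and ranked 60 among the rises of all tested genes.

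Lta encodes lymphotoxin alpha, the one member here that is secreted as a soluble trimer, and that is held at the membrane when it pairs with lymphotoxin beta (chromosome 17, 35203165 to 35205351, minus strand, 1157 bases upstream of Tnf). It had 355, 362 and 373 CPM in the stimulated libraries, against 14.9, 14.2 and 14.98 CPM in the unstimulated ones. The groups did not overlap and the replicates lay close together in both, with a coefficient of variation of 2.43% in stimulated and 2.96% in unstimulated cells, the smallest among the 10 ligands in each group. The rise was 4.63 (SE 0.071; edgeR, adjusted p = 2.6e-09), or 24.7-fold.

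Ltb encodes lymphotoxin beta, the membrane anchor of that heterotrimer (chromosome 17, 35194439 to 35196320, plus strand, with 3060 bases between its end and that of Tnf). It had 848, 905 and 1041 CPM in the stimulated libraries, against 614, 636 and 592 CPM in the unstimulated ones. It was thus abundant at rest, and the groups did not overlap. The rise was 0.60 (SE 0.080; edgeR, adjusted p = 0.000105), or 1.52-fold, the smallest of the 10, and did not pass the test against 2-fold (adjusted p = 1). B cells also express Ltb, and the summed B cell markers differed between the groups by the values given above. Ighm had 699, 937 and 1251 CPM in stimulated replicates 1, 2 and 3, against 1334, 1831 and 2787 CPM in the unstimulated replicates. The part of B cells in the Ltb result was not tested.

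The 3 lymphotoxin and TNF genes are the only members of the family within the 50 kb on either side of the Tnf start. The other protein-coding genes tested there moved both ways. Nfkbil1, an IkB-like protein gene next to Lta, was 22.6 ± 1.59 CPM in stimulated and 44.3 ± 1.97 CPM in unstimulated cells (SD, n = 3 each) and fell by 0.97 on the log2 scale (edgeR, adjusted p = 4.0e-06). Lst1, a leukocyte gene next to Ltb, was 1.12 ± 0.0891 CPM in stimulated and 1.24 ± 0.0766 CPM in unstimulated cells and was not called (edgeR, adjusted p = 0.55). Farther out, Ddx39b, an RNA helicase gene, and Prrc2a rose by 0.71 and 0.66, Aif1 rose by 1.54 at a low level (1.45 ± 0.477 CPM in stimulated and 0.495 ± 0.216 CPM in unstimulated cells), and Atp6v1g2 fell by 1.43. The annotated Atp6v1g2 and Nfkbil1 genes overlap on opposite strands, and the strand setting of the counting is not known, so their reads are uncertain.

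**Figure D2:**
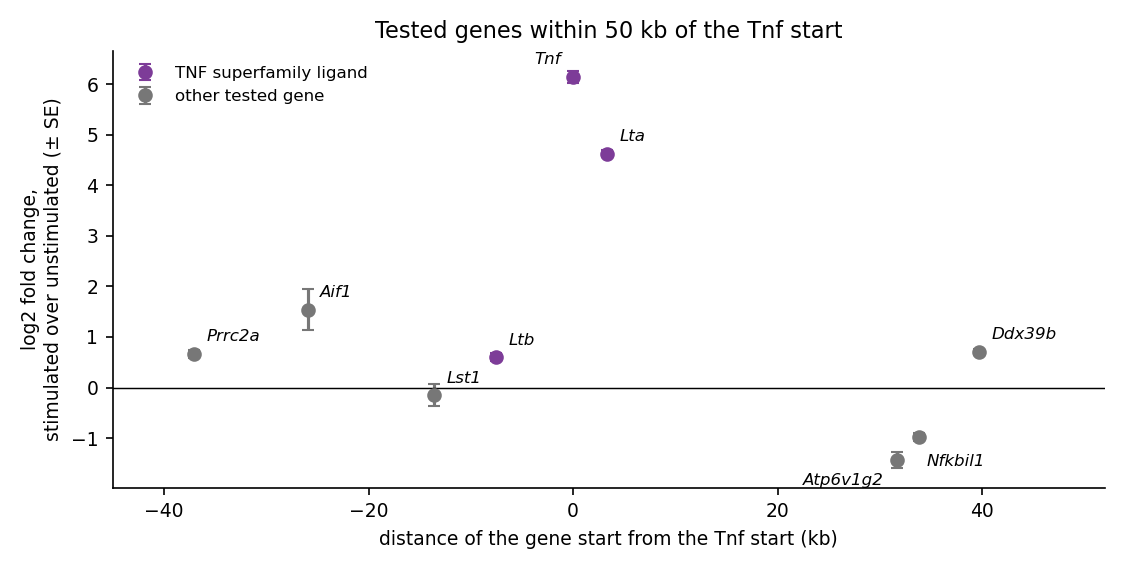
Log2 fold change (± SE) of each tested protein-coding gene that starts within 50 kb of the Tnf start, against the distance between the starts in kb on the reference strand, with the 3 ligands in purple. Tnf (6.15) and Lta (4.63) stand above every other gene drawn, while Ltb, on the other side of Tnf from Lta, lies at 0.60, close to Prrc2a (0.66) and Ddx39b (0.71).

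Tnfsf8, Tnfsf9 and Tnfsf4, whose receptors carry costimulatory signals in T cells, rose by 8.33-fold, 5.84-fold and 3.93-fold. Tnfsf8, which encodes the CD30 ligand (chromosome 4, 63831308 to 63861347, minus strand), was the most abundant of these 3 in both groups. It had 1215, 1049 and 973 CPM in the stimulated libraries, against 147, 126 and 116 CPM in the unstimulated ones. Replicate 1 was highest and replicate 3 lowest in both groups, so that the log2 ratio within replicate numbers was nearly constant at 3.05, 3.06 and 3.06 for replicates 1, 2 and 3. The rise was 3.06 (SE 0.12; edgeR, adjusted p = 3.7e-08).

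Tnfsf9, which encodes the CD137 ligand, known mainly from antigen-presenting cells (chromosome 17, 57105325 to 57107757, plus strand), had 15.7, 16.4 and 11.7 CPM in the stimulated libraries, against 2.86, 2.31 and 2.32 CPM in the unstimulated ones. The groups were well apart, with stimulated replicate 3 the lowest of its group. The rise was 2.55 (SE 0.17; edgeR, adjusted p = 1.0e-06). The noncoding gene Gm11110 shares 192 of the 1290 exon bases of Tnfsf9 on the opposite strand and had 140 reads over the stimulated and 258 reads over the unstimulated libraries, so part of the reads of either gene may belong to the other.

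Tnfsf4, which encodes the OX40 ligand, also known mainly from antigen-presenting cells (chromosome 1, 161395409 to 161418410, plus strand), was the least abundant ligand in both groups per length. It had 6.94, 6.25 and 9.71 CPM in the stimulated libraries, against 1.81, 2.24 and 1.76 CPM in the unstimulated ones. The groups did not overlap. Stimulated replicate 3 was the highest of its group and the coefficient of variation was 24.0% in stimulated cells. The rise was 1.98 (SE 0.21; edgeR, adjusted p = 2.5e-05), and the log2 ratio within replicate numbers ran from 1.48 in replicate 2 to 2.46 in replicate 3. Macrophages and dendritic cells make both Tnfsf4 and Tnfsf9. Of the 5 macrophage markers Adgre1 and Itgam fell and none rose, where 39.1% of all tested genes fell and 38.4% rose. Itgam shares 3450 of its 5024 exon bases with Gm49368 on the same strand, so the reads of Itgam are uncertain. Of the 4 dendritic cell markers Xcr1 rose by 1.251 (edgeR, adjusted p = 0.0235) and Flt3 fell by 1.12 (edgeR, adjusted p = 0.0258). Over all alternatives the adjusted p reached 0.216 for Xcr1 and 0.217 for Flt3. The group means of Xcr1 and Flt3 were under 1 CPM. The part of these cells in either result was not tested.

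Tnfsf11, which encodes RANKL, the cytokine that drives osteoclast formation and signals to dendritic and thymic epithelial cells (chromosome 14, 78277445 to 78308043, minus strand), rose about as much as Tnf. It had 280.0, 328 and 278 CPM in the stimulated libraries, against 5.06, 4.33 and 4.93 CPM in the unstimulated ones. Stimulated replicate 2 was the highest and the groups were far apart. The rise was 5.95 (SE 0.11; edgeR, adjusted p = 3.5e-09), or 61.8-fold, and ranked 68 among all tested genes. Its nearest protein-coding neighbours, Fam216b and Akap11, lie 188437 and 184202 bases away. Fam216b had no read in any library, and Akap11 was not called (6564 reads over the stimulated and 7589 reads over the unstimulated libraries; edgeR, adjusted p = 0.75).

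Tnfsf14, which encodes LIGHT, a ligand of the receptors HVEM and lymphotoxin beta receptor (chromosome 17, 57189492 to 57194177, minus strand), had 104, 116 and 99.6 CPM in the stimulated libraries, against 5.92, 6.67 and 7.51 CPM in the unstimulated ones. The groups were far apart, and resting replicate 3 was the highest of its group. The rise was 3.99 (SE 0.11; edgeR, adjusted p = 7.0e-09), or 15.9-fold.

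Fasl, which encodes the death-inducing Fas ligand (chromosome 1, 161780689 to 161788495, minus strand), had 23.2, 25.5 and 23.0 CPM in the stimulated libraries, against 2.39, 2.69 and 3.55 CPM in the unstimulated ones. The stimulated libraries lay close together, and resting replicate 3 was the highest of its group. The rise was 3.05 (SE 0.15; edgeR, adjusted p = 1.3e-07), or 8.31-fold. Natural killer and CD8 T cells also make Fas ligand. Of the 4 natural killer cell markers Eomes rose with Fasl, by 3.36 (SE 0.95; edgeR, adjusted p = 0.0215), Klrk1 was not called (edgeR, adjusted p = 0.224), and Ncr1 and Klrb1c had at most 3 reads in any library. Eomes had 19.6, 2.78 and 1.70 CPM in the unstimulated libraries, and over all its alternatives the adjusted p lay between 1.74e-06 and 0.0971. Of the CD8 markers Cd8a rose and Cd8b1 fell. For Cd8b1 the adjusted p lay between 0.00418 and 0.3 over all its alternatives. The part of these cells in the Fasl result was not tested.

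Cd40lg, which encodes the CD40 ligand through which helper T cells license B cells and dendritic cells (chromosome X, 57212143 to 57224042, plus strand), had 81.1, 79.3 and 49.5 CPM in the stimulated libraries, against 33.3, 37.1 and 35.7 CPM in the unstimulated ones. Stimulated replicate 3 stood apart below the other 2, although still above every resting library, and the coefficient of variation was 25.4% in stimulated and 5.43% in unstimulated cells. The rise was 0.98 (SE 0.18; edgeR, adjusted p = 0.0013), or 1.98-fold, and was not past 2-fold by glmTreat (adjusted p = 0.59). Without stimulated replicate 3 the rise was 1.19 and was past 2-fold (glmTreat, adjusted p = 0.018). Other omissions made it smaller: 0.87 without stimulated replicate 1 and 0.89 without stimulated replicate 2. It was smallest, 0.83, without both libraries of replicate 1 (edgeR, adjusted p = 0.0308). Within replicate numbers the log2 ratio was 1.29, 1.10 and 0.47 for replicates 1, 2 and 3.

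**Figure D3:**
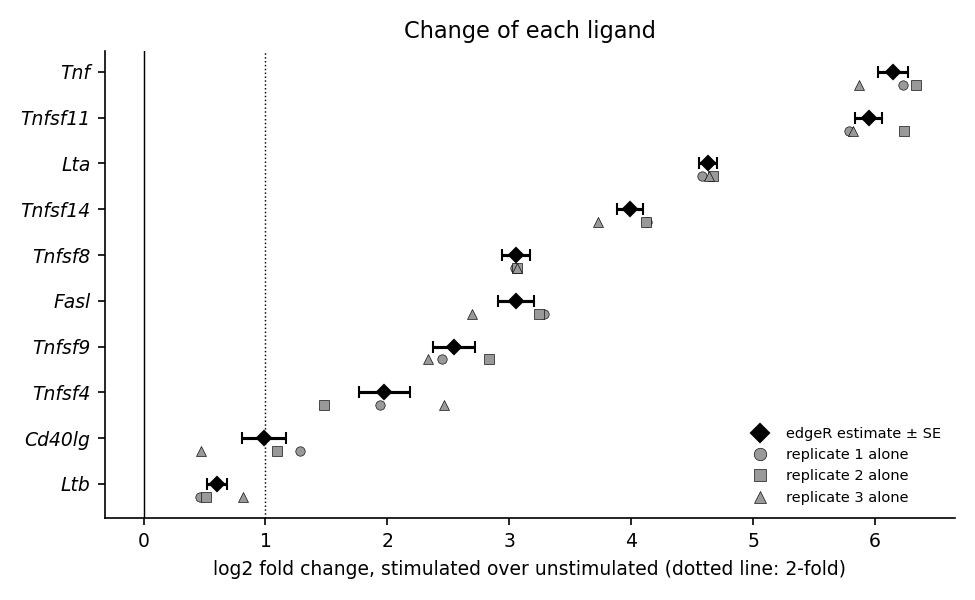
Log2 fold change of each ligand, stimulated over unstimulated: black diamonds give the edgeR estimate ± SE and grey symbols the ratio within each replicate number. The estimates run from 6.15 for Tnf to 0.60 for Ltb, and the ratios within replicates spread most for Tnfsf4 and Cd40lg, whose lowest ratio is 0.47 in replicate 3.

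Stimulated replicate 3 was the lowest of its group for Tnf, Tnfsf8, Tnfsf9, Tnfsf11, Tnfsf14, Fasl and Cd40lg and the highest for Lta, Ltb and Tnfsf4. In unstimulated cells replicate 3 was the highest for Tnf, Lta, Tnfsf14 and Fasl and the lowest for Ltb, Tnfsf4 and Tnfsf8. For Cd40lg the fall of stimulated replicate 3 below the other stimulated libraries was wider than its gap to the highest resting library.

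Levels of different genes were compared per length, as CPM with TMM-scaled library sizes divided by the kilobases of annotated exon (RPKM). The 10 ligands summed to 1645 ± 10.9 RPKM in stimulated and 491 ± 15.3 RPKM in unstimulated cells (SD, n = 3 each). Ltb made up 37.4% ± 4.04 of the stimulated sum and 82.5% ± 0.533 of the unstimulated sum. In stimulated cells Ltb was followed by Tnfsf8 (17.2% ± 2.03), Lta (16.0% ± 0.407), Tnf (12.8% ± 1.44) and Tnfsf11 (8.03% ± 0.704). In unstimulated cells it was followed by Tnfsf8 (6.92% ± 0.760), Cd40lg (5.76% ± 0.329) and Lta (2.16% ± 0.126), and each of the others held less than 1%.

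The order in stimulated cells was Ltb (614 ± 65.5 RPKM), Tnfsf8 (283 ± 32.6), Lta (263 ± 6.38), Tnf (211 ± 24.0), Tnfsf11 (132 ± 12.5), Tnfsf14 (57.6 ± 4.56), Cd40lg (56.0 ± 14.2), Fasl (12.3 ± 0.720), Tnfsf9 (11.3 ± 1.95) and Tnfsf4 (4.14 ± 0.995). The ranges of Tnfsf8 and Lta, of Tnfsf14 and Cd40lg, and of Fasl and Tnfsf9 overlapped, so that these neighbours did not differ beyond their spread. At rest the order was Ltb (405 ± 14.3 RPKM), Tnfsf8 (34.0 ± 4.09), Cd40lg (28.3 ± 1.54), Lta (10.6 ± 0.315), Tnfsf14 (3.63 ± 0.431), Tnf (2.97 ± 0.209), Tnfsf11 (2.13 ± 0.174), Tnfsf9 (1.94 ± 0.245), Fasl (1.48 ± 0.312) and Tnfsf4 (1.05 ± 0.144). There the ranges of Tnfsf11 and Tnfsf9 and of Tnfsf9 and Fasl overlapped. Cd40lg held rank 7 after stimulation and rank 3 at rest, whereas Ltb and Tnfsf8 led and Tnfsf4 came last in both orders.

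**Figure D4:**
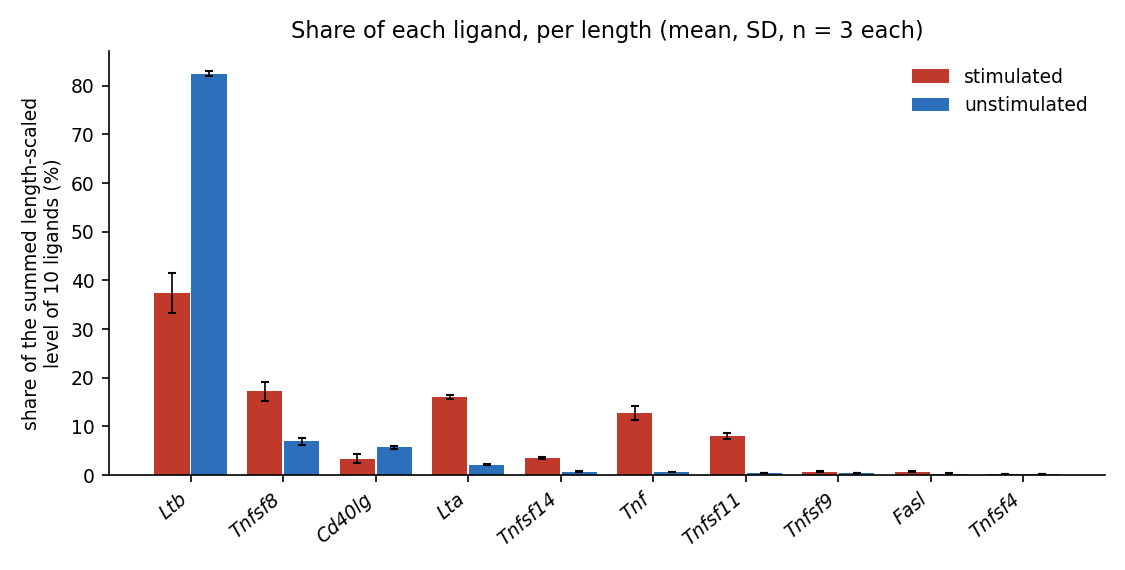
Share of each ligand in the summed length-scaled level (RPKM) of the 10 ligands, in percent, as mean and SD over 3 libraries per group, ordered by the share at rest. Ltb holds 37.4% in stimulated and 82.5% in unstimulated cells, and Tnfsf8, Lta, Tnf and Tnfsf11 have larger shares in stimulated cells.

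Many ligand genes of this family lie in small clusters, and 8 of the 10 have another family ligand as their nearest protein-coding neighbour on at least 1 side. Tnfsf9 and Tnfsf14 flank Cd70, which encodes the ligand of CD27. Cd70 had 48, 43 and 45 reads in the stimulated libraries, against 4, 5 and 2 reads in the unstimulated ones, and rose by 3.73 on the log2 scale (SE 0.35; edgeR, adjusted p = 1.0e-05). It remained at a low level, 1.59 ± 0.101 CPM in stimulated and 0.116 ± 0.0485 CPM in unstimulated cells (SD, n = 3 each). Tnfsf18, the GITR ligand gene that lies between Tnfsf4 and Fasl, had 0 reads in the stimulated and 1 read in the unstimulated libraries. Tnfsf15, next to Tnfsf8, had 12, 6 and 12 reads in the stimulated libraries, against 3, 1 and 0 reads in the unstimulated ones, and did not pass the filter. With no filter its change was 2.94 (SE 0.80; edgeR, adjusted p = 0.0031), and in the alternatives in which it was tested the adjusted p lay between 0.00311 and 0.0244.

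Outside the family, 11 distinct genes were nearest neighbours of the ligands, of which 1 rose, 3 fell, 4 were not called and 3 were not tested. Called genes were thus 4 of the 8 tested, where 77.5% of all tested genes were called. The gene that rose was C3, the complement component next to Tnfsf14, with 2.496 ± 0.111 CPM in stimulated and 0.570 ± 0.418 CPM in unstimulated cells (SD, n = 3 each; log2 fold change 2.12, SE 0.41; edgeR, adjusted p = 0.0012). Besides Nfkbil1, the genes that fell were Arhgef6, a Rac and Cdc42 exchange factor gene that ends 7442 bases from Cd40lg (48.3 ± 4.78 CPM in stimulated and 185 ± 12.1 CPM in unstimulated cells; log2 fold change -1.94, SE 0.092; edgeR, adjusted p = 1.1e-07), and Tubb4a, a tubulin gene next to Tnfsf9 (2.15 ± 0.300 CPM in stimulated and 5.05 ± 0.935 CPM in unstimulated cells; log2 fold change -1.23, SE 0.20; edgeR, adjusted p = 0.00042).

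Of the 8 family ligands that are not among the 10, 3 passed the filter, 2 rose and none fell. Of all tested genes 38.4% rose and 39.1% fell. Cd70, which rose, passed the filter through the stimulated libraries alone. A fall of Cd70 could thus not have been found, and its rise adds nothing to that comparison. Besides Cd70 the one that rose was Tnfsf10, which encodes the death ligand TRAIL. It had 55.0, 36.8 and 36.1 CPM in the stimulated libraries, against 19.3, 15.3 and 9.61 CPM in the unstimulated ones, and rose by 1.53 (SE 0.28; edgeR, adjusted p = 0.0017). Replicate 1 was the highest in both groups. Tnfsf13b, which encodes the B cell survival factor BAFF, had 4.64, 3.23 and 3.24 CPM in the stimulated libraries, against 7.73, 3.66 and 3.86 CPM in the unstimulated ones, so that the groups overlapped, and its difference of -0.46 was not called (SE 0.31; edgeR, adjusted p = 0.21). With replicate number as a block it was called as lower, by -0.41 (SE 0.16; edgeR, adjusted p = 0.033), within a range of 0.033 to 0.927 over its alternatives. Tnfsf12, Tnfsf13 and Eda had at most 3 reads in any library; exons of Tnfsf12 and Tnfsf13 are shared with the joint transcript gene Tnfsfm13, so that their reads are uncertain.

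Of 11 receptors of the 10 ligands, 9 passed the filter, 6 rose, 1 fell and 2 were not called, with a median change of 1.57. The share called in either direction was close to the 77.5% of all tested genes, of which 38.4% rose and 39.1% fell. Tnfrsf11b, which rose, passed the filter through the stimulated libraries alone, so a fall could not have been found for it. Both TNF receptors were measured, and they went opposite ways. Tnfrsf1a, the receptor with a death domain, had 15.3, 17.4 and 16.0 CPM in the stimulated libraries, against 59.0, 73.1 and 79.5 CPM in the unstimulated ones, and fell by 2.12 (SE 0.12; edgeR, adjusted p = 2.9e-07). Tnfrsf1b, which has none and is found mainly on lymphocytes and endothelium, had 118, 114 and 102 CPM in the stimulated libraries, against 53.7, 45.5 and 35.5 CPM in the unstimulated ones, and rose by 1.31 (SE 0.14; edgeR, adjusted p = 3.6e-05). Per length Tnfrsf1b stood at 29.2 ± 2.12 RPKM and Tnfrsf1a at 6.26 ± 0.419 RPKM in stimulated cells, whereas in unstimulated cells they stood at 11.8 ± 2.38 and 27.2 ± 4.04 RPKM (SD, n = 3 each), so that the order of the receptors was turned round.

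Tnfrsf4 and Tnfrsf9, the receptors of the OX40 and CD137 ligands, rose by 4.51 and 5.59 (SE 0.087 and 0.12; edgeR, adjusted p = 4.0e-09 and 4.6e-09). Per length Tnfrsf4 was at 1187 ± 113 RPKM in stimulated and 51.99 ± 1.67 RPKM in unstimulated cells, where its ligand Tnfsf4 was at 4.14 ± 0.995 and 1.05 ± 0.144 RPKM. Tnfrsf9 was at 116 ± 6.75 RPKM in stimulated and 2.41 ± 0.331 RPKM in unstimulated cells, where its ligand Tnfsf9 was at 11.3 ± 1.95 and 1.94 ± 0.245 RPKM. Both receptor transcripts were above those of their ligands within each of the 3 stimulated and 3 unstimulated libraries. At rest, however, the ranges of Tnfrsf9 (2.05 to 2.71 RPKM) and Tnfsf9 (1.79 to 2.22 RPKM) overlapped.

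Tnfrsf8, which encodes CD30, had 43.6, 23.5 and 19.1 CPM in the stimulated libraries, against 19.0, 5.97 and 4.11 CPM in the unstimulated ones. Replicate 1 was the highest in both groups, and stimulated replicate 3 was barely above unstimulated replicate 1. The difference of 1.57 was not called (SE 0.66; edgeR, adjusted p = 0.0725). Blocking on replicate number made it a call (1.73, SE 0.21; edgeR, adjusted p = 0.000613). It was also called when unstimulated replicate 1 was left out (2.51; edgeR, adjusted p = 0.0043), when replicate 1 was left out of both groups (2.09; edgeR, adjusted p = 5.64e-07), by DESeq2 (adjusted p = 0.0428) and by limma-voom (adjusted p = 0.0285). Over all its alternatives the adjusted p lay between 5.64e-07 and 0.216.

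Fas rose by 0.40 (SE 0.084; edgeR, adjusted p = 0.0018) at 48.2 ± 2.58 CPM in stimulated and 36.4 ± 3.17 CPM in unstimulated cells (SD, n = 3 each). Tnfrsf14, which encodes HVEM, was 16.1 ± 2.12 CPM in stimulated and 14.5 ± 3.97 CPM in unstimulated cells and was not called (edgeR, adjusted p = 0.53). Cd40, better known from B cells and dendritic cells, had 197, 154 and 186 reads in the stimulated libraries, against 25, 14 and 13 reads in the unstimulated ones, and rose by 3.50 (SE 0.27; edgeR, adjusted p = 2.2e-06). Of the 6 B cell markers 5 fell and 1 was not called, where 39.1% of all tested genes fell. For Ighm, which fell, the adjusted p lay between 1.26e-08 and 0.102 over all its alternatives. The part of B cells in the Cd40 result was not tested. Tnfrsf11b, which encodes the soluble RANKL decoy osteoprotegerin, had 34, 43 and 49 reads in the stimulated libraries, against 1, 3 and 3 reads in the unstimulated ones, and rose by 4.24 (SE 0.41; edgeR, adjusted p = 1.1e-05). Tnfrsf11a, the signalling receptor of RANKL, had at most 3 reads in any library. Ltbr, the lymphotoxin beta receptor known from stromal and myeloid cells, had 5, 3 and 9 reads in the stimulated libraries, against 10, 9 and 5 reads in the unstimulated ones, and did not pass the filter.

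**Figure D5:**
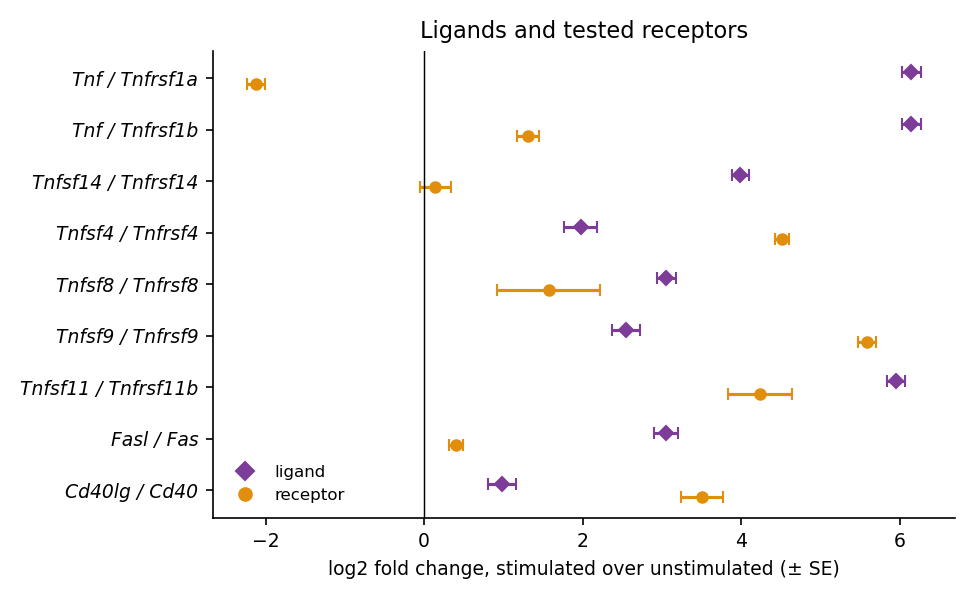
Log2 fold change (± SE), stimulated over unstimulated, of ligands (purple diamonds) and of those receptors that passed the filter (orange circles), 1 ligand and receptor on each line. The receptor lies above its ligand for Tnfsf4, Tnfsf9 and Cd40lg and below it on the other lines, and Tnfrsf1a (-2.12) is the one receptor drawn that fell.

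Of 17 other TNF receptor superfamily genes 12 passed the filter, 5 rose, 5 fell and 2 were not called, with a median change of 0.027, which is near the 38.4% and 39.1% of all tested genes that rose and fell. Tnfrsf21 (death receptor 6), Tnfrsf10b (the mouse TRAIL receptor) and Tnfrsf18 (GITR) rose by 5.93, 1.99 and 1.55, and Cd27, Tnfrsf13b (TACI) and Tnfrsf26 fell by 1.72, 1.10 and 3.24 (edgeR, adjusted p between 2.16e-08 and 4.65e-06). Tnfrsf18 shares 414 of its 1524 exon bases with the antisense gene Gm16008, which had 224 reads over the stimulated and 84 reads over the unstimulated libraries. The 15 adaptors and kinases next to the receptors were 9 up, 2 down and 4 not called, with a median of 0.41; the share called was near the 77.5% of all tested genes. Tank, Traf3 and Birc3 rose by 1.31, 1.502 and 1.42, and Traf5 and Tradd, the adaptor of the death domain of Tnfrsf1a, fell by 0.82 and 0.49 (edgeR, adjusted p between 4.1e-07 and 0.00063). Ripk1, the kinase at TNF receptor 1, differed by -0.34 (edgeR, adjusted p = 0.0579). It was called as lower once replicate number entered as a block (edgeR, adjusted p = 0.00184), and over all its alternatives the adjusted p lay between 0.00184 and 0.243. Ripk1 shares 241 of its 8344 exon bases with Serpinb6a on the opposite strand. Serpinb6a had 1240 reads over the stimulated and 5000 reads over the unstimulated libraries, so the reads of Ripk1 are uncertain.

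Of 7 genes for proteins that release these ligands from the membrane, or that control the release, 6 passed the filter. Of these 3 rose, 1 fell and 2 were not called, with a median of 0.36. Of all tested genes 77.5% were called, and 6 genes are too few to tell the share called here from that. Adam17, the protease that sheds TNF, was 72.5 ± 3.91 CPM in stimulated and 71.9 ± 7.21 CPM in unstimulated cells (SD, n = 3 each). The difference of 0.012 on the log2 scale was not called (SE 0.087, edgeR, adjusted p = 0.91). Adam17 shares 311 of its 7154 exon bases with Iah1 on the opposite strand. Iah1 had 1124 reads over the stimulated and 1938 reads over the unstimulated libraries, so the reads of Adam17 are uncertain. The partner protein iRhom2, which carries Adam17 to the surface, is encoded by Rhbdf2, which was 42.4 ± 3.73 CPM in stimulated and 19.1 ± 0.606 CPM in unstimulated cells and rose by 1.15 (SE 0.086; edgeR, adjusted p = 2.1e-06). Adam10, which sheds Fas ligand, was 143 ± 10.2 CPM in stimulated and 186 ± 22.1 CPM in unstimulated cells and fell by 0.38 (SE 0.098; edgeR, adjusted p = 0.0058). Sppl2b, an intramembrane protease that cuts the remaining stub, rose by 0.67 (edgeR, adjusted p = 0.00017), and Rhbdf1 by 1.68 at under 1 CPM (edgeR, adjusted p = 0.011). Rhbdf1 passed the filter through the stimulated libraries alone, so a fall could not have been found for it. When replicate 2 was left out of both groups, Adam10 and Rhbdf1 were no longer called (edgeR, adjusted p = 0.0503 and 0.0664), and neither was Rhbdf1 without replicate 3 (edgeR, adjusted p = 0.0641). Over all alternatives the adjusted p lay between 0.000117 and 0.0503 for Adam10 and between 0.000626 and 0.0664 for Rhbdf1.

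Among 12 genes for proteins that bind AU-rich or stem-loop elements of cytokine transcripts, 9 rose and 3 fell, with a median of 0.55, where 38.4% of all tested genes rose and 39.1% fell. With library size alone 11 were called, Tial1 being the one lost (edgeR, adjusted p = 0.0744), as it was without replicate 2 (edgeR, adjusted p = 0.0697). The decay factors of the tristetraprolin family did not move as one. Zfp36 (tristetraprolin) was 30.7 ± 3.76 CPM in stimulated and 97.0 ± 10.6 CPM in unstimulated cells and fell by 1.66 (SE 0.11; edgeR, adjusted p = 1.0e-06), and Zfp36l2 was 136 ± 3.17 CPM in stimulated and 464 ± 26.5 CPM in unstimulated cells and fell by 1.77 (SE 0.067; edgeR, adjusted p = 3.2e-08). Zfp36l1 was 123 ± 16.4 CPM in stimulated and 67.0 ± 9.21 CPM in unstimulated cells and rose by 0.88 (SE 0.13; edgeR, adjusted p = 0.00022), although it shares 1672 of its 2990 exon bases with the opposite-strand gene Gm26669, which had 52 reads over the stimulated and 48 reads over the unstimulated libraries. Elavl1 (HuR, a stabilising factor) and Hnrnpd (AUF1) rose by 1.28 and 1.22, and Zc3h12a (Regnase) by 0.90, while Tia1, a translational repressor of TNF, fell by 0.40 (edgeR, adjusted p between 6.9e-07 and 0.00036).

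Patterns were compared by the distance over the 6 libraries between log2(CPM + 0.5) values centred on each gene's mean, among 10444 other named protein-coding genes with a mean of at least 1 CPM. Tnf and Tnfsf11, on different chromosomes, were the nearest to each other (distance 0.342). The nearest to Ltb was Inf2 (0.118), to Tnfsf14 Gcsh (0.174), to Tnfsf9 Rrp8 (0.183) and to Tnfsf4 Fkbp11 (0.265), with changes of 0.54, 3.92, 2.35 and 1.89. For Tnfsf8, Lta, Fasl and Cd40lg the nearest were Rnd3 (0.161), Hpdl (0.242), Dgat2 (0.204) and St5 (0.161), which are expressed at lower levels and had larger fitted changes of 5.79, 6.51, 3.37 and 1.49, since the added 0.5 CPM shrinks the change of low genes on that scale. With 2 groups of 3 libraries this likeness rests mainly on the size of the change.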

How the data were processed

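The authors deposited a single table of raw, whole-number counts for Ensembl genes in 6 libraries. The tools STAR (2.5.2a), HTSeq and DESeq2 and the build GRCm38 are named, without their roles, per the submitters' processing notes. The annotation release, strand setting and read filters were not stated there. Genes with overlapping exons are therefore uncertain. Of the 48440 identifiers, 48058 had a name in GENCODE M21.

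The counts were fitted with edgeR 4.0.16 in R 4.3.3 (TMM, filterByExpr, robust quasi-likelihood test, group as the only term, two-sided, Benjamini-Hochberg). The filter left 13314 genes. glmTreat tested against a log2 fold change of 1. The SE came from the change and its F statistic. RPKM used the union of annotated exons. The same fit was also run on simulated counts in which few genes changed and libraries of the same number shared no deviations. In the real data most tested genes were called, so that run does not show how the fit does here. Alternatives were RLE, library size alone, library sizes without the 20 most abundant genes, no filter, 1 CPM in 3 libraries, DESeq2 1.42.0, limma-voom 3.58.1, a threshold of 0.01, replicate number as a block, and leaving out each library or replicate number.

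Replicates differed by more than counting noise (dispersion index of pairs 9.11 to 37.1, where counting noise gives about 1). Deviations from the group means correlated between stimulated and unstimulated libraries of the same number at 0.442, 0.132 and 0.472 over 13314 genes. Between libraries of unlike number they correlated at -0.443 to -0.00982. The numbers may thus pair the samples, but the labels do not say what they share. The main fit did not use such a pairing, and replicate number entered as a block only as an alternative. A floor of 3 reads covers counting error alone, because PCR copies were not marked by molecular identifiers.

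The ligands, the gene lists and the rule for named genes were chosen with earlier results of these data known. The rule named all 10 ligands, the other family ligands and the receptors, the nearest protein-coding neighbours, the gene most alike to each ligand, and of other lists the 3 members with the smallest p in each direction. Adam17, Zfp36l1, Ripk1, Tial1 and the genes around Tnf beyond the nearest neighbours were named in addition, after their values were seen. So were genes that share exons with named genes. Promoters came from RefSeq (GRCm38.p6), of which 7 of the 10 ligands had an entry.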

Additional observations from a re-analysis of the deposited data

How the results depend on the processing

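All 10 ligands rose and passed the threshold under every alternative run, and none of their 180 alternative values changed direction or side. With library size alone the median of all genes moved by -0.139, and the ligand changes then ran from 0.46 for Ltb to 6.01 for Tnf. Between 8 and 9 ligands were past 2-fold on leaving out libraries, the additional one being Cd40lg without stimulated replicate 3 or without both libraries of replicate 3. With replicate number as a block, 10 ligands were called and 8 were past 2-fold, 3 other family ligands, 8 receptors, 12 signalling genes, 4 shedding genes and 12 mRNA control genes were called, and 10842 of all genes against 10320 without it; besides Tnfrsf8, Tnfsf13b and Ripk1 it changed no call among these lists. On leaving out libraries the shedding genes called numbered 2 to 4, with 2 without both libraries of replicate 2, where fewer samples enter the fit. Library sizes without the 20 most abundant genes gave the same values, as TMM was computed again. The order of the ligands per length was the same with the longest transcript as the length. Precision is limited for Tnfsf15, Cd70, Ltbr and Tnfrsf11b, which rest on few reads.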
